A study of Mus musculus with 31 samples.

Results

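The ETS factors of endothelium and blood described here are 8 mouse transcription factor genes, Etv2, Erg, Fli1, Ets1, Ets2, Elk3, Etv6 and Elf1. They were chosen by gene name, and all 8 had a row in both deposited tables, out of 20314 genes. Their messenger RNA was measured by RNA-seq in 31 libraries that fall into 9 groups. The study concerns expandable hemangioblasts (eHBs), cell lines named after the hemangioblast, a progenitor that can give rise to both blood and endothelium, the cell layer that lines vessels.

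Embryonic day is written as E. Fetal hematopoietic stem cells (HSCs, n = 1) were sorted at E14.5 as CD45-positive, CD201-positive, CD150-positive and CD48-negative cells and lysed without culture. Day 3 blood (n = 5, VE-cadherin-positive and CD45-positive) and day 2 blood (n = 5, VE-cadherin-positive and CD45-negative) were sorted from cultures of the 5 eHB lines. Those cultures were kept at 1.5% oxygen with SCF, IL-3, Flt3L and the GSK3 inhibitor CHIR99021. Endothelial cultures (n = 5, day 3, not sorted) of the same lines held VEGF, a cyclic AMP analogue, the TGF-beta receptor inhibitor SB431542, BMP4 and FGF2. Neither the blood nor the endothelial cultures held doxycycline, whereas the eHB lines themselves (n = 5, not sorted) grew with 2 µg/mL of it. Doxycycline is the drug that turns on tetracycline-controlled transgenes, and the tables hold rows for 6 ectopic transcripts. They include those of Tal1, Gata2, Lmo2, Sox17 and Mycn, and none is an ETS factor. Lines M5 (from embryonic fibroblasts), FL4 and FL10 (from fetal liver) grew in FGF2, whereas RB3.6.5 and also RB4.6.9 (from embryonic stem cells) grew in the endothelial medium, so origin and medium of the eHB lines cannot be told apart. Kdr-positive mesoderm (n = 3) was sorted after 4 days of differentiation of the embryonic stem (ES) lines RB2, RB3 and RB4 with Activin A, CHIR99021, BMP4 and FGF2. The ES lines (n = 3, not sorted) were kept with CHIR99021, PD0325901 and LIF. Endothelium of the yolk sac (n = 2) and of the embryo (n = 2) was sorted at E11.5 as VE-cadherin-positive and Pecam1-positive cells and lysed without culture.

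ETS factors share a winged helix-turn-helix domain that binds DNA around a GGAA core, written TTCC on the other strand. In the mouse embryo, Etv2 acts briefly in Kdr-positive mesoderm at the start of the blood and endothelial lineages, and Fli1, Erg and Ets1 act after it in vessels and blood. Elk3 and Etv6 are known mainly as repressors, and Elf1 is known for its binding to endothelial and blood gene enhancers.

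Of the 8 genes, 6 had an entry in the RefSeq promoter table of build GRCm38.p6, and Fli1 and Ets1 had none. The 250 bases before the RefSeq start site are printed for 3 of them, on the strand of the gene and 5′ to 3′, with each GGAA or TTCC in capitals. These were chosen because their levels set 3 different patterns of the data: Etv2, highest in mesoderm; Elk3, highest in the endothelial groups; and Etv6, highest in HSCs. The windows are chr7:30635853-30636102 (minus strand) for Etv2, chr10:93311160-93311409 (minus strand) for Elk3 and chr6:134035450-134035699 (plus strand) for Etv6.
Etv2: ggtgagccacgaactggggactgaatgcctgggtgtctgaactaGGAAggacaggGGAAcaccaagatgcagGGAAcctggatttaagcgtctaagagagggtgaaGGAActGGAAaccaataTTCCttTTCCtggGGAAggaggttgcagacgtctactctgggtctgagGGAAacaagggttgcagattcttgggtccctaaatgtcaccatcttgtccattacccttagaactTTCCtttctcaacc
Elk3: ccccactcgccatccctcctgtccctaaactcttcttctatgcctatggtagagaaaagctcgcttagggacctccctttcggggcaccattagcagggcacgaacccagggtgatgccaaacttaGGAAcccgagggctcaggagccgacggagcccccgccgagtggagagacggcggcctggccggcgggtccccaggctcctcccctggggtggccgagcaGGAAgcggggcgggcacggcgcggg
Etv6: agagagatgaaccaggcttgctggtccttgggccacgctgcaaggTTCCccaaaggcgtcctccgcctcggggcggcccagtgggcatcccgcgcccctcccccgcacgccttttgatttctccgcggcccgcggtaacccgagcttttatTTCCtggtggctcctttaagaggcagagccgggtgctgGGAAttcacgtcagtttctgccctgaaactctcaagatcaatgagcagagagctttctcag
The search for GGAA on both strands found 10 matches in the Etv2 window, 2 in the Elk3 window and 3 in the Etv6 window. Of the 32851 windows of this length in the table, 93.4% held at least 1 match, and the median was 3 matches. As many matches as in the Etv2 window, or more, were found in 63 windows, or 0.192% of the table. The corresponding shares were 76.8% for the Elk3 count and 54.7% for the Etv6 count. The longer word AGGAAG, which contains GGAA, occurred once each in the Etv2 and Elk3 windows and in 29.5% of all windows, and CCGGAAG was found in none of the 3 and in 6.91% of all windows. A match is a run of letters and not a measured binding site.

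Per the GENCODE annotation of GRCm38, Fli1 (chromosome 9, 32422204 to 32542861, minus strand) and Ets1 (chromosome 9, 32636221 to 32757820, plus strand) are neighbours on the same chromosome. Erg (chromosome 16, 95359169 to 95586593, minus strand) and Ets2 (chromosome 16, 95702075 to 95721051, plus strand) likewise lie close together. Etv2 lies on chromosome 7 (30633616 to 30635852, minus strand), Elk3 on chromosome 10 (93247414 to 93311135, minus strand), Etv6 on chromosome 6 (134035700 to 134270158, plus strand) and Elf1 on chromosome 14 (79481194 to 79582494, plus strand).

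Libraries held 9424412 to 79497758 expected counts. The groups were set beside marker genes. Of the endothelial markers, Cdh5 (the gene of VE-cadherin) and Pecam1 served to sort yolk sac and embryo endothelium, and Cdh5 both kinds of blood. Sums in these sorted groups are thus partly set by the sort. The 8 endothelial markers, which include Cdh5, Kdr and Tie1, summed to 6026 to 8189 TPM in endothelial cultures, 6208 to 7489 in yolk sac and 5376 to 6487 in embryo endothelium. The same sum was 122 to 349 TPM in the eHB lines, where the endothelial sialomucin gene Emcn was at 0 in all 5 libraries. Day 2 blood was uneven. The 7 erythroid markers found in the tables summed to 56820 TPM in the M5 library and 56920 TPM in the FL4 library, against 2577 to 5616 TPM in the other 3 libraries. Results for day 2 blood were therefore also computed without these 2 libraries. The ectopic transcripts summed to at most 218 TPM in any blood or endothelial culture library, against 11100 to 14100 TPM in the eHB lines. Levels are in the authors' deposited TPM, a unit per transcript length, so that genes can be compared, and values of the 5 lines are always given in the order M5, FL4, FL10, RB3.6.5 and RB4.6.9. Because the samples are bulk, fewer cells of a type and less RNA per cell cannot be told apart.

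Etv2, which starts the blood and endothelial programme in mesoderm, was a mesoderm gene in these data and close to the limit of detection in most eHB-derived cells. The HSC library stood at 0.248 TPM, and day 3 blood held a single Etv2 read in 5 libraries. Day 2 blood had 12.5, 0, 0.184, 0.429 and 0.429 TPM, so that the M5 library alone held 109 of the 123 reads of its group. The 8 markers of early mesoderm summed to 0.112 TPM in that library and to between 0.041 and 0.317 TPM over the 5 day 2 libraries. In endothelial cultures Etv2 was at 0.303, 0, 0.135, 0 and 0 TPM, in all 6 reads. The eHB lines had 0.748, 0.390, 0.244, 0.790 and 0.199 TPM, below every mesoderm and every ES library. Mesoderm had 25.8, 21.6 and 22.3 TPM, against 2.22, 2.06 and 2.49 TPM in the ES lines, and no library of another group reached the mesoderm range. Yolk sac endothelium had 0.093 and 0 TPM, against 1.10 and 1.14 TPM in embryo endothelium.

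Erg, which maintains endothelial identity and is needed by HSCs in the mouse, stood at 190 TPM in the HSC library, above the mean of every other group, with the 3 endothelial groups next. Day 3 blood had 26.6, 3.95, 9.58, 8.02 and 35.4 TPM, and day 2 blood 8.14, 2.58, 18.97, 22.4 and 60.7 TPM, in overlapping ranges. Endothelial cultures had 283, 52.9, 61.4, 154 and 147 TPM, with the fetal liver lines lowest and the fibroblast line highest. The eHB lines split apart, at 27.7, 0.221, 0.646, 16.8 and 20.9 TPM. FL4 and FL10 thus had almost no Erg, although their Fli1 was the highest of the 5 lines. In mesoderm and in ES cells Erg amounted to 2 reads per group. Yolk sac endothelium (139 and 99.1 TPM) and embryo endothelium (84.4 and 133 TPM) overlapped with each other and with the cultures.

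Fli1, the closest relative of Erg and a regulator of vessels, platelets and blood stem cells, was highest in endothelial cultures. The HSC library had 70.1 TPM. Day 3 blood had 21.4, 24.7, 24.02, 45.02 and 47.6 TPM and day 2 blood 55.7, 13.7, 41.3, 46.0 and 60.8 TPM, and on day 3 the ES-derived lines were the highest. Endothelial cultures had 109, 165, 148, 144 and 137 TPM, and every culture lay above every library of the other groups. The eHB lines had 55.2, 74.6, 64.6, 57.4 and 12.96 TPM, with RB4.6.9 far below the other 4. Mesoderm held 0.702, 1.59 and 1.09 TPM, and the ES lines 0, 0 and 0.011. Yolk sac endothelium (71.5 and 67.9 TPM) and embryo endothelium (60.8 and 74.1 TPM) fell within one narrow band, which also held the HSC library.

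Ets1, a factor of vessel growth and of lymphoid cells, separated the endothelial groups from all others. The HSC library stood at 17.4 TPM. Blood was low, at 6.41, 2.07, 2.49, 15.3 and 10.1 TPM on day 3 and 8.47, 6.93, 17.8, 9.35 and 28.3 TPM on day 2. Endothelial cultures had 191, 255, 274, 218 and 236 TPM, against 67.7, 37.9, 41.9, 60.6 and 16.5 TPM in the eHB lines, without overlap. The lines were the next highest group by mean. Mesoderm had 11.51, 30.1 and 24.6 TPM, against 0.446, 0.614 and 0.337 TPM in ES cells, so that Ets1 was present by the mesoderm stage. Yolk sac endothelium had 293 and 236 TPM and embryo endothelium 264 and 349 TPM, overlapping with each other and with the cultures.

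Ets2, a widely expressed target of Ras and MAP kinase signalling, was the most abundant of the 8 genes in every endothelial culture and every eHB line. Day 3 blood formed a narrow band, at 31.1, 31.6, 39.1, 30.3 and 39.7 TPM, and the HSC library (38.9 TPM) lay inside it. Day 2 blood was spread, at 42.8, 41.9, 157, 64.7 and 205 TPM, with FL10 and RB4.6.9 high, and all 5 day 2 values lay above all 5 day 3 values. Endothelial cultures had 401, 725, 704, 502 and 434 TPM, against 87.7, 91.4, 75.0, 128 and 83.8 TPM in the eHB lines. The cultures also lay above all libraries of yolk sac endothelium (383 and 310 TPM) and embryo endothelium (211 and 287 TPM). Mesoderm (13.02, 16.2 and 14.9 TPM) and ES cells (14.6, 16.4 and 14.9 TPM) overlapped.

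Elk3, a ternary complex factor that represses until it is phosphorylated by MAP kinases, was an endothelial gene with little spread. The HSC library had 75.9 TPM, well above blood. Day 3 blood had 33.6, 29.9, 40.7, 12.5 and 39.0 TPM and day 2 blood 13.8, 13.03, 43.8, 19.6 and 53.0 TPM, in overlapping ranges. Endothelial cultures had 252, 227, 274, 256 and 268 TPM, against 10.4, 27.8, 28.4, 43.9 and 14.9 TPM in the eHB lines. Mesoderm had 4.68, 9.97 and 6.08 TPM and ES cells 5.12, 5.34 and 6.08 TPM, the lowest of the 9 groups. Yolk sac endothelium had 288 and 268 TPM and embryo endothelium 267 and 377 TPM, in the range of the cultures or above it.

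Etv6, a repressor needed for adult HSCs and for yolk sac vessels in the mouse, followed another order, with the HSC library at 172 TPM and blood next. Day 3 blood had 71.6, 48.0, 59.8, 41.4 and 93.5 TPM and day 2 blood 51.9, 24.99, 68.8, 57.5 and 71.5 TPM, with FL4 the lowest on day 2. Endothelial cultures (27.9, 31.7, 32.3, 26.2 and 27.5 TPM) overlapped with the eHB lines (33.9, 33.4, 29.2, 30.5 and 25.4 TPM). Mesoderm was the lowest group, at 14.9, 16.1 and 15.7 TPM, against 35.9, 36.4 and 32.7 TPM in ES cells. Yolk sac endothelium had 31.4 and 30.7 TPM and embryo endothelium 37.4 and 51.5 TPM.

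Elf1, whose protein binds enhancers of genes such as Tek and Tal1, had the same top order as Etv6. The HSC library had 106 TPM, day 3 blood 43.4, 47.03, 48.7, 47.3 and 62.5 TPM, and day 2 blood 36.1, 31.2, 52.0, 36.5 and 38.2 TPM. Unlike Etv6 it was higher in endothelial cultures than in the eHB lines. The cultures had 30.7, 36.1, 34.4, 24.9 and 21.8 TPM, against 3.80, 10.7, 5.31, 4.12 and 4.63 TPM in the eHB lines. FL4 was the highest of the eHB lines. Mesoderm had 2.86, 7.27 and 5.42 TPM and ES cells 10.9, 10.04 and 11.2 TPM, without overlap. Yolk sac endothelium (21.2 and 19.9 TPM) lay above embryo endothelium (11.02 and 19.5 TPM).

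**Figure D1:**
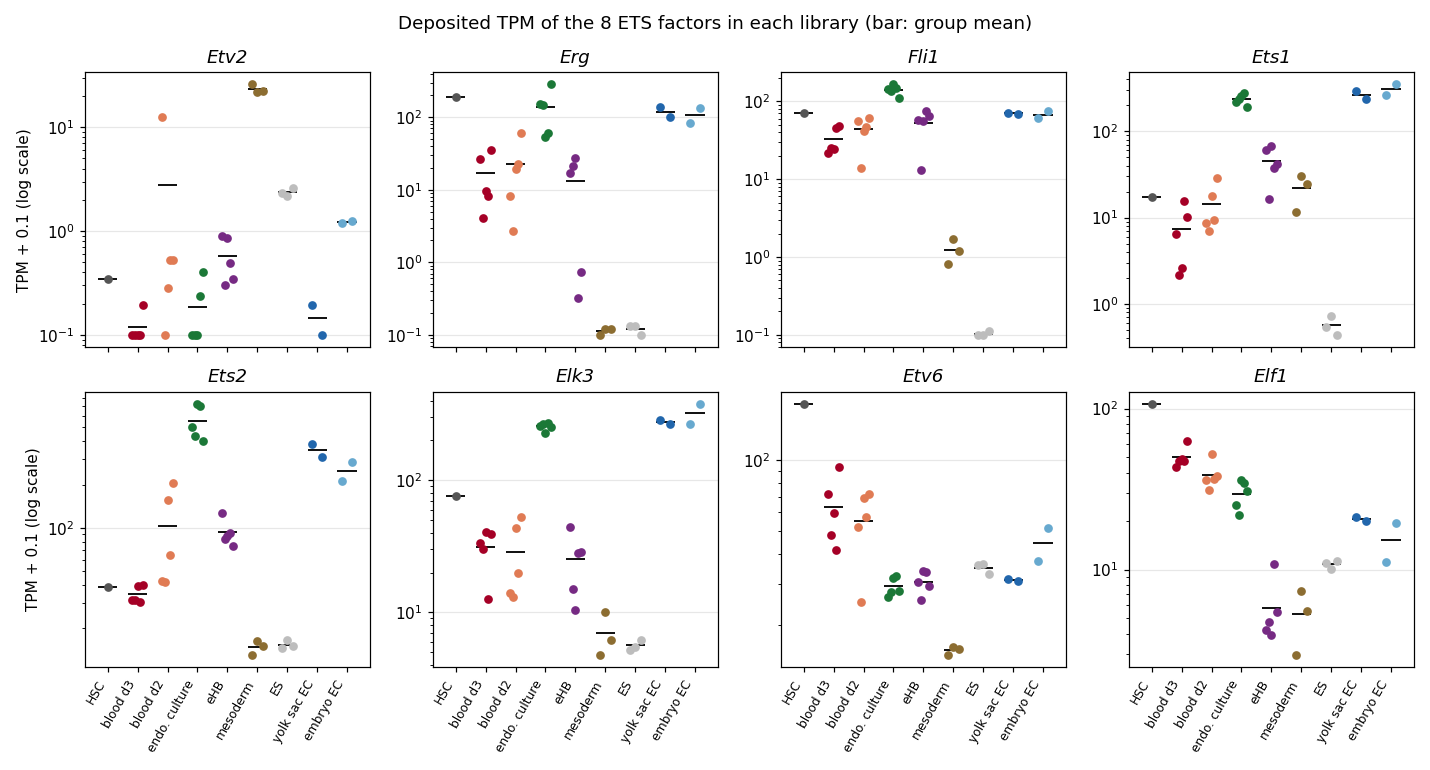
Level of each ETS factor in each library (points; TPM + 0.1 on a log axis) by group, with the group mean as a bar. Etv2 peaks in mesoderm (21.6 to 25.8 TPM), Ets1, Ets2 and Elk3 are highest in the endothelial groups, and Etv6 and Elf1 are highest in the HSC library (172 and 106 TPM).

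The summed mean level of the 8 genes was 671 TPM in HSCs, 235 TPM in day 3 blood, 307 TPM in day 2 blood, 1382 TPM in endothelial cultures, 266 TPM in the eHB lines, 88.8 TPM in sorted mesoderm and 69.3 TPM in the ES lines, with 1129 TPM in yolk sac and 1115 TPM in embryo endothelium. The make-up of that sum differed as much as its size. Etv2 made up 26.9% ± 7.28 of the sum in mesoderm and 3.26% ± 0.389 in ES cells (SD, n = 3 each). Ets2 made up 39.5% ± 7.56 in endothelial cultures and 35.7% ± 6.78 in the eHB lines (SD, n = 5 each). Etv6 and Elf1 made up 26.4% ± 3.70 and 21.6% ± 2.86 in day 3 blood, against 2.11% ± 0.0738 and 2.13% ± 0.309 in endothelial cultures (SD, n = 5 each). In the HSC library Erg came first with 28.3% and Etv6 second with 25.7%.

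**Figure D2:**
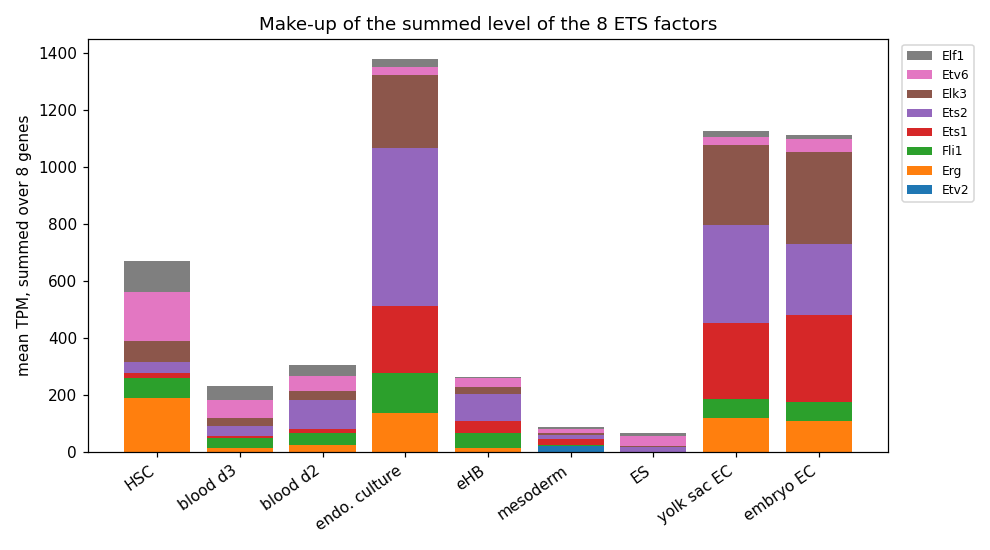
Mean TPM of the 8 genes stacked by group (bars start at 0). Endothelial cultures (1382 TPM), yolk sac (1129 TPM) and embryo endothelium (1115 TPM) stand above the other groups, and the blood groups hold larger shares of Etv6 and Elf1.

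The first comparison asked which of the genes went with the step from ES cells to Kdr-positive mesoderm. Etv2 rose by 3.70 ± 0.21 on the log2 scale (edgeR quasi-likelihood test, adjusted p = 5.19e-07) and Ets1 by 5.88 ± 0.41 (adjusted p = 3.70e-06). Fli1 had 159 reads over the mesoderm group and 0 in ES cells, at least 42.7-fold higher against a floor of 3 reads over the group (adjusted p = 7.22e-05). Elk3 (0.63 ± 0.22, adjusted p = 0.0263) and Ets2 (0.27 ± 0.10, adjusted p = 0.0376) rose little. Etv6 fell by 0.84 ± 0.09 on the log2 scale (adjusted p = 1.87e-05) and Elf1 fell by 0.74 ± 0.25 (adjusted p = 0.0231), while Erg had too few reads to be tested. Thus 5 genes rose and 2 fell among the 7 tested, where 79.1% of all genes tested were called (39.1% higher and 40.0% lower), so the count itself is near the background. The calls of Ets2, Elk3 and Elf1 were not stable: that of Ets2 was lost without mesoderm replicates 2 or 3 or ES replicates 1 or 3 (adjusted p = 0.0683 to 0.155) and when line was entered as a block (adjusted p = 0.0543), and on log2(TPM + 1) its sign turned (-0.06, adjusted p = 0.673). Elk3 was lost without mesoderm replicate 2 or ES replicates 1 or 2 (adjusted p = 0.0763 to 0.0924), and Elf1 without ES replicates 1 or 3 (adjusted p = 0.0566 and 0.0656); without ES replicate 1 only 4 of the 7 remained called. With all 31 libraries in 1 fit none of these 3 was called (Ets2 adjusted p = 0.378, Elk3 0.149, Elf1 0.1002); Elk3 was also lost on log2(TPM + 1) (0.371) and Ets2 without the filter (0.0521).

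Between the eHB lines and sorted mesoderm, Etv2 and the later endothelial factors went in opposite directions. This comparison sets stable lines, which carry transgenes, against a transient stage of ES cell differentiation. Etv2 fell by 5.94 ± 0.51 on the log2 scale in the eHB lines (edgeR, adjusted p = 1.02e-04). Fli1 rose by 5.26 ± 0.65 (adjusted p = 5.03e-04), Ets2 by 2.34 ± 0.17 (adjusted p = 4.84e-05), Elk3 by 1.55 ± 0.46 (adjusted p = 0.0245) and Etv6 by 0.65 ± 0.13 (adjusted p = 0.00464). Erg had 3173 reads in the eHB lines against 2 in mesoderm, 815-fold per library size with a counting interval of 225 to 6730, and was called (adjusted p = 0.00926). Ets1 (0.72 ± 0.46, adjusted p = 0.229) and Elf1 (-0.15 ± 0.42, adjusted p = 0.792) were not called. In all, 6 of 8 genes were called, 5 higher and 1 lower, beside 46.6% of all genes tested (23.5% higher and 23.1% lower). Elk3 lost its call without mesoderm replicate 1 (adjusted p = 0.0960) or replicate 3 (adjusted p = 0.0865), and Erg, whose level in FL4 and FL10 was under 1 TPM, lost it on log2(TPM + 1) (adjusted p = 0.0540).

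In endothelial cultures of the same 5 lines, without doxycycline, 6 of the 8 genes rose relative to the eHB lines. Elk3 rose by 3.40 ± 0.34 on the log2 scale (edgeR, adjusted p = 1.08e-05), Ets2 by 2.60 ± 0.20 (adjusted p = 1.70e-06), Ets1 by 2.44 ± 0.33 (adjusted p = 8.25e-05) and Elf1 by 2.39 ± 0.31 (adjusted p = 6.47e-05). Fli1 rose by 1.42 ± 0.38 (adjusted p = 0.00678). Erg rose by 3.46 ± 1.10 (adjusted p = 0.0169), and by 4.41 (adjusted p = 0.00345) when line was entered as a block. Each of these 6 was higher in 5 of 5 lines, with no overlap between the cultures and the eHB lines. How many of all genes did the same was not computed. Etv6 was not called (-0.04 ± 0.12, adjusted p = 0.777), and Etv2, with 6 reads in the cultures and 38 in the eHB lines, was too low to be tested. The 6 called genes of 7 tested stand beside 70.0% called among all genes (34.3% higher and 35.6% lower). For the tissue-derived lines the change of medium and the withdrawal of doxycycline coincide, and for the ES-derived lines the medium stayed and doxycycline was withdrawn.

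In day 2 blood against the eHB lines, Elf1 and Etv6 were called higher and Ets1 lower. Erg, Elk3, Ets2 and Fli1 had positive fold changes that were not called. Elf1 rose by 3.42 ± 0.32 on the log2 scale (edgeR, adjusted p = 6.74e-05), in 5 of 5 lines. Etv6 rose by 1.49 ± 0.22 (adjusted p = 4.87e-04), in 4 of 5 lines on the TPM scale. Ets1 fell by 1.09 ± 0.40 (adjusted p = 0.0413), in 4 of 5 lines on the TPM scale, with RB4.6.9 the exception. Erg (1.31 ± 1.10, adjusted p = 0.334), Elk3 (0.76 ± 0.42, adjusted p = 0.149), Ets2 (0.68 ± 0.35, adjusted p = 0.124) and Fli1 (0.38 ± 0.47, adjusted p = 0.513) were not called, and on log2(TPM + 1) the signs of Fli1 and Ets2 turned. Erg was higher in 4 of 5 lines on the TPM scale. With line entered as a block, edgeR did not call Erg either (2.24, adjusted p = 0.0766). The 3 called genes of 7 stand beside 54.1% of all genes tested (28.5% higher and 25.5% lower). The call of Ets1 was lost when line was entered as a block (adjusted p = 0.0918), without day 2 replicates 1 to 4 (adjusted p = 0.0598 to 0.0929) and without eHB replicates 1, 3, 4 or 5 (adjusted p = 0.0547 to 0.0948). Without the erythroid-rich M5 and FL4 libraries of day 2, Ets1 was not called (-0.85, adjusted p = 0.169) and Ets2 was (1.05, adjusted p = 0.0193), while Elf1 (3.34) and Etv6 (1.58) stayed called.

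Within day 2 blood, the library highest in endothelial markers and lowest in erythroid markers was also highest in 6 of the 8 ETS factors. The 8 endothelial markers summed to 462, 161, 576, 691 and 1336 TPM in the 5 lines. RB4.6.9, with the highest sum, also had the highest Erg, Fli1, Ets1, Ets2, Elk3 and Etv6 of the 5 libraries. FL4, with the lowest sum, had the lowest of each of these 6. Elf1 ran from 31.2 to 52.0 TPM, with FL4 lowest and FL10 highest. The erythroid markers had the reverse extremes, with FL4 highest at 56920 TPM and RB4.6.9 lowest at 2577 TPM. The M5 library had nearly the same erythroid sum as FL4, at 56820 TPM, but not the same ETS levels throughout. Its Fli1, Etv6 and Erg stood at 55.7, 51.9 and 8.14 TPM, against 13.7, 24.99 and 2.58 TPM in FL4. Ets1, Ets2 and Elk3 were closer, at 8.47, 42.8 and 13.8 TPM in M5 against 6.93, 41.9 and 13.03 TPM in FL4. How many of all genes were highest in RB4.6.9 or lowest in FL4 was not computed. The part of endothelial or erythroid cells in these levels was not tested.

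Day 3 blood, sorted as CD45-positive, differed from CD45-negative day 2 blood in 1 of 7 genes tested, where 10.2% of all genes were called (7.31% higher and 2.87% lower). Ets2 fell by 1.56 ± 0.36 on the log2 scale (edgeR, adjusted p = 0.0238), in 5 of 5 lines. Elf1 (0.26 ± 0.16, adjusted p = 0.317), Etv6 (0.10 ± 0.25, adjusted p = 0.843), Elk3 (0.07 ± 0.35, adjusted p = 0.926), Erg (-0.44 ± 0.74, adjusted p = 0.745), Fli1 (-0.48 ± 0.42, adjusted p = 0.497) and Ets1 (-0.83 ± 0.62, adjusted p = 0.424) were not called. Etv2, not tested, had 1 read on day 3 against 123 on day 2. The call of Ets2 was lost without day 3 replicates 1, 2, 3 or 5 (adjusted p = 0.0526 to 0.0655) and on log2(TPM + 1) (adjusted p = 0.110), and it stayed without the M5 and FL4 libraries of day 2 (-1.89, adjusted p = 0.0162). Beside it, the macrophage markers summed to 715 to 9929 TPM on day 3 against 10.2 to 155 TPM on day 2, and the leukocyte markers, which include the sorting marker gene Ptprc, to 3044 to 4484 TPM against 624.7 to 1733 TPM. Their part in the fall of Ets2 was not tested. Leaving out day 3 replicates 1, 2 or 3 took the count over all genes from 1230 to 657, 746 and 681, and leaving out replicate 4 to 1930.

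Set against endothelial cultures of the same lines, both kinds of blood showed the same division of the 8 genes into 5 lower and 2 higher, with Etv2 too low to be tested. In day 3 blood Ets1 fell by 4.49 ± 0.64 on the log2 scale (edgeR, adjusted p = 1.89e-04), Ets2 fell by 3.61 ± 0.21 (adjusted p = 9.82e-07), Erg fell by 2.71 ± 0.66 (adjusted p = 0.00487), Elk3 fell by 2.70 ± 0.22 (adjusted p = 4.98e-06) and Fli1 fell by 1.67 ± 0.31 (adjusted p = 9.03e-04). Etv6 rose by 1.48 ± 0.18 (adjusted p = 5.65e-05) and Elf1 by 1.15 ± 0.17 (adjusted p = 2.50e-04). None of the 7 ranges in TPM overlapped, but the share of all genes without overlap was not computed. All 7 tested genes were thus called, where 61.3% of all genes were (31.1% higher and 30.2% lower). Ets1 fell by 5.16 when the RB3.6.5 library of day 3 was left out. The blood and endothelial cultures differed in growth factors, in oxygen and in sorting, which cannot be told apart here.

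In day 2 blood against endothelial cultures, Ets1 fell by 3.61 ± 0.32 on the log2 scale (edgeR, adjusted p = 1.64e-05), Elk3 fell by 2.72 ± 0.32 (adjusted p = 6.61e-05), Erg fell by 2.23 ± 0.72 (adjusted p = 0.0195), Ets2 fell by 2.01 ± 0.39 (adjusted p = 0.00126) and Fli1 fell by 1.14 ± 0.34 (adjusted p = 0.0128). Etv6 rose by 1.43 ± 0.21 (adjusted p = 2.55e-04) and Elf1 by 0.93 ± 0.17 (adjusted p = 9.16e-04). The ranges of Erg, Etv6 and Elf1 overlapped between these groups. All 7 tested genes were called, beside 64.4% of all genes (32.9% higher and 31.6% lower). Both blood comparisons use the same endothelial libraries. Erg fell by 2.86 without the RB4.6.9 library of day 2, and without the M5 and FL4 libraries it was not called (-1.69, adjusted p = 0.0535); Elf1 was not called on log2(TPM + 1) (adjusted p = 0.0900).

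**Figure D3:**
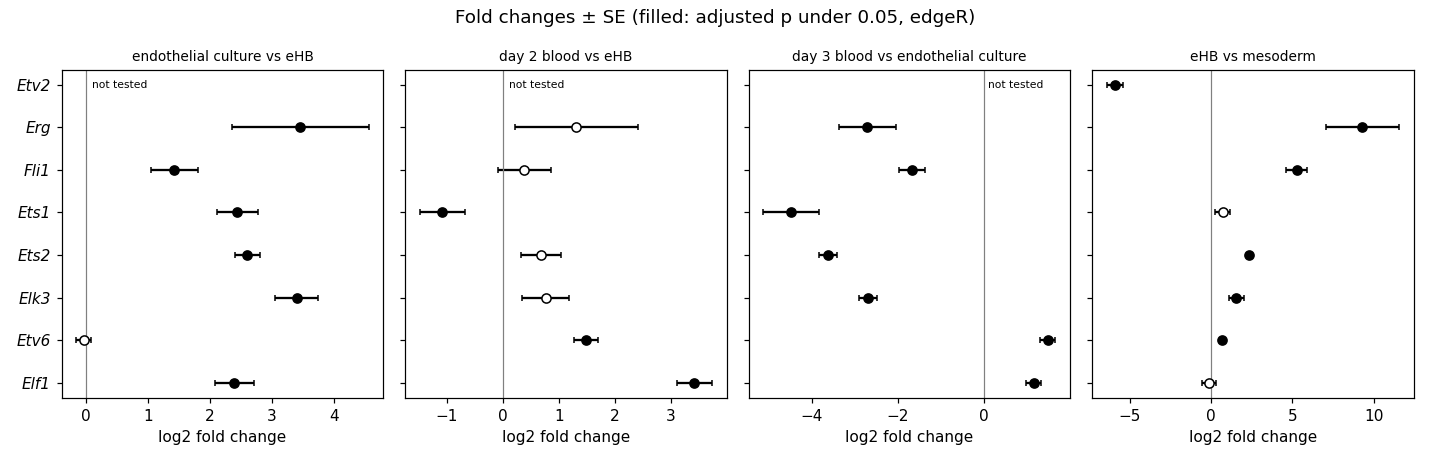
Log2 fold change (x axis) of each ETS factor (y axis) with its SE in 4 comparisons, filled where the edgeR adjusted p was under 0.05. Erg, Fli1, Ets1, Ets2, Elk3 and Elf1 are filled to the right in endothelial culture against eHB, and in day 3 blood against endothelial culture only Etv6 (1.48) and Elf1 (1.15) are filled to the right.

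**Figure D4:**
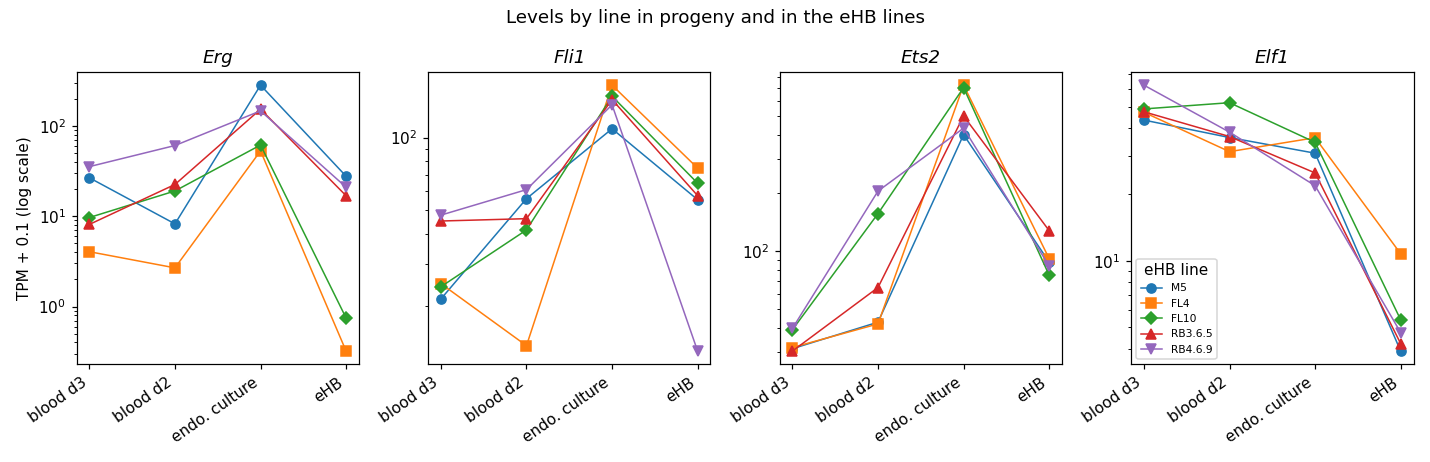
Levels of Erg, Fli1, Ets2 and Elf1 (TPM + 0.1, log axis) in the 4 stages of each eHB line, joined by line for reading and not as a time course. Erg in FL4 and FL10 starts from 0.221 and 0.646 TPM in the eHB stage and stands at 52.9 and 61.4 TPM in endothelial culture, and Elf1 is lower in every eHB line than in each of its 3 kinds of progeny.

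Cultured endothelium was next compared with endothelium freshly sorted from the embryo. Fli1 was higher in culture by 1.05 ± 0.16 on the log2 scale (edgeR, adjusted p = 0.00231), Ets2 by 1.15 ± 0.28 (adjusted p = 0.0128) and Elf1 by 0.97 ± 0.26 (adjusted p = 0.0183). Etv6 fell by 0.61 ± 0.13 (adjusted p = 0.00815) and Etv2, with 6 reads in 5 cultures against 31 in 2 embryo libraries, fell by 3.68 ± 1.21 (adjusted p = 0.0364). Erg (0.39 ± 0.65, adjusted p = 0.655), Ets1 (-0.38 ± 0.16, adjusted p = 0.0902) and Elk3 (-0.33 ± 0.14, adjusted p = 0.0982) were not called. The 5 called genes of 8 stand beside 45.4% of all genes (3025 genes higher and 3210 lower). The calls were fragile. With all 31 libraries in 1 fit Fli1 was not called (1.08, adjusted p = 0.113). With DESeq2 Etv2 was not called (adjusted p = 0.152), whereas Ets1 (0.0461) and Elk3 (0.0359) were. Of the 2 embryo libraries, without the first, Ets2 (adjusted p = 0.0992) and Elf1 (0.131) were lost, and without the second, Ets2 (0.0578) and Etv6 (0.0642), so that 2 of 8 remained called in each case and the count over all genes fell to 3415 without the first. Etv2 was lost without either embryo library (adjusted p = 0.154 and 0.122) and without endothelial replicates 1 to 4 (adjusted p = 0.0542 to 0.0581), and fell by 4.88 without the M5 culture. Beside this, the erythroid markers summed to 18.4 to 1947 TPM in the cultures and to 2341 and 28000 TPM in the embryo libraries. The macrophage markers summed to 13.2 to 25.6 TPM in the cultures against 293 and 425 TPM in the embryo libraries, and the leukocyte markers to 50.2 to 202 TPM against 467 and 569 TPM. The part of these cells in the differences was not tested.

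Yolk sac endothelium differed from embryo endothelium in 1 of 8 genes, beside 24.4% of all genes tested (15.9% higher and 8.54% lower). Etv2 had 1 read in yolk sac against 31 in embryo libraries, a ratio of 0.0345 per library size with a counting interval of 8.47e-04 to 0.207 (edgeR, adjusted p = 0.0197). Etv6 (-0.55 ± 0.18, adjusted p = 0.0505), Ets2 (0.44 ± 0.22, adjusted p = 0.182), Elf1 (0.41 ± 0.22, adjusted p = 0.207), Ets1 (-0.26 ± 0.22, adjusted p = 0.450), Elk3 (-0.25 ± 0.22, adjusted p = 0.460), Erg (0.11 ± 0.21, adjusted p = 0.771) and Fli1 (0.01 ± 0.17, adjusted p = 0.982) were not called. The call of Etv2 was lost without the second yolk sac library (adjusted p = 0.129) or the second embryo library (0.0550), and its fitted log2 value was -6.94 without the first yolk sac library. With DESeq2 (adjusted p = 0.0619) and with all 31 libraries in 1 fit (0.302) Etv2 was not called. Etv6 was called with DESeq2 (adjusted p = 0.0342), without the filter (0.0387) and without the first embryo library (0.0146), and Elf1 without the second (0.0148). The visceral endoderm markers summed to 10700 and 11120 TPM in the yolk sac libraries against 5.64 and 10.9 in the embryo libraries. Mural and mesenchymal markers stood at 924 and 959 TPM against 42.6 and 51.8 TPM. Mesoderm, macrophage and megakaryocyte marker sums were also higher in yolk sac, macrophage markers at 779.5 and 868 TPM against 293 and 425 TPM. Leukocyte and lymphoid marker sums were lower, leukocyte markers at 353 and 393 TPM against 467 and 569 TPM. The part of these cells was not tested.

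The origin of the lines was tested in the eHB stage and in endothelial culture. Between 3 tissue-derived and 2 ES-derived eHB lines, edgeR called 0 of 8 genes, where 11.8% of all genes were called (4.56% higher and 7.20% lower). Of the 8 genes, 0 were at an unadjusted p under 0.05, and DESeq2 and limma called 0 as well. Leaving out 1 line moved the count over all genes from 1501 to between 0 and 29, whichever line it was. Fli1 averaged 64.8 TPM in tissue-derived and 35.2 TPM in ES-derived eHB lines (log2 fold change 0.98 ± 0.62, adjusted p = 0.317). In endothelial culture edgeR called 0 of 7 genes, beside 0.00778% of all genes. Of the 7, 1 was at an unadjusted p under 0.05, Elf1; limma called 0 and DESeq2 called Elf1. Elf1 averaged 33.7 TPM in tissue-derived and 23.4 TPM in ES-derived cultures without overlap (0.53 ± 0.11, unadjusted p = 0.00463, adjusted p = 0.149; DESeq2 adjusted p = 5.44e-04). An interaction of origin and stage was called by edgeR for 0 of 8 genes, of which 0 were at an unadjusted p under 0.05, and for 0 of 13761 genes, with 2177 genes at an unadjusted p under 0.05 and 1042 called by DESeq2 and 166 by limma; neither of these called any of the 8. Without the RB3.6.5 eHB library the interaction of Fli1 was called (-2.43, adjusted p = 0.0482).

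The HSC library has no replicate, and its difference from day 3 blood was described without a test. It lay above all 5 day 3 libraries for 7 of the 8 genes, and inside their range for Ets2. The share of all genes above that range was not computed, so this count has no background beside it. For Etv2 it rests on 10 reads in the HSC library, the deepest at 79497758 expected counts, against 1 read over day 3 blood. The difference in log2(TPM + 1) was 3.80 for Erg, against an SD of 1.19 over the 5 blood libraries. It was 1.50 for Etv6 (SD 0.46), 1.44 for Ets1 (SD 1.04), 1.36 for Elk3 (SD 0.67), 1.16 for Fli1 (SD 0.53), 1.09 for Elf1 (SD 0.20), 0.29 for Etv2 (SD 0.06) and 0.18 for Ets2 (SD 0.19). Erg thus showed the widest gap. On log2 CPM with TMM scaling the HSC library lay above the day 3 range for 5 of the 8. On that scale the difference was 1.68 for Etv2, 0.88 for Etv6, 0.56 for Fli1, 0.48 for Elf1 and -0.44 for Ets2, and with a pseudocount of 0.1 on TPM it was 1.61 for Etv2. The endothelial markers summed to 556 TPM in the HSC library and to 188 to 452 TPM in day 3 blood, beside these values.

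A list of 24 endothelial genes with described control by ETS factors, among them Cdh5, Tek, Robo4 and Dll4, moved in the same comparisons. In endothelial cultures against eHB lines 22 of 24 rose and 0 fell, with a median log2 fold change of 5.92, where the median of all genes was -0.04. Of all genes, 70.0% were called there (34.3% higher and 35.6% lower). Sox18, a SoxF factor of vessels, rose by 14.1 ± 0.51 on the log2 scale (edgeR, adjusted p = 5.31e-08) and Robo4, a guidance receptor of endothelium, by 12.9 ± 0.57 (adjusted p = 1.24e-07). Emcn was at least 1440-fold higher, with 4816 reads against 0. In eHB lines against mesoderm 11 of 19 rose and 3 fell, beside 46.6% of all genes called (23.5% higher and 23.1% lower). The receptor gene Tie1 rose by 10.5 ± 1.84 (edgeR, adjusted p = 0.00239) and Cdh5 by 8.36 ± 1.97 (adjusted p = 0.00914), while the endoglin gene Eng fell by 4.51 ± 0.62 (adjusted p = 8.41e-04). Mesoderm against ES cells was mixed, with 6 higher and 7 lower of 15 beside 79.1% called among all genes; Kdr, on which the mesoderm was sorted, stood at 79.9 TPM against 0.109 TPM, and Pecam1, which ES cells also express, fell by 6.11 ± 0.25 (adjusted p = 1.11e-07).

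In blood the same list went the other way relative to endothelium. Day 3 blood had 0 higher and 21 lower of 24 against endothelial cultures (median -5.57, all genes 0.02), with the angiogenic peptide gene Apln at 5.03 TPM against 2970 TPM and Flt4, the receptor for VEGF-C, at 0.847 TPM against 337 TPM. Of all genes, 61.3% were called in that comparison (31.1% higher and 30.2% lower). Day 2 blood had 1 higher and 20 lower of 24 (median -3.36, all genes 0.04), beside 64.4% of all genes called (32.9% higher and 31.6% lower). Dll4, a Notch ligand of arteries, fell by 8.14 ± 0.71 (edgeR, adjusted p = 1.50e-05), and Vwf, which platelets and megakaryocytes also make, rose by 5.44 ± 1.88 (adjusted p = 0.0268). Against the eHB lines, day 2 blood had 10 higher and 0 lower of 22 (median 2.48, all genes 0.01), led by Sox18 at 33.5 TPM against 0.0336 TPM and Robo4 at 9.43 TPM against 0.057 TPM. The number called is not above the 54.1% of all genes called there (28.5% higher and 25.5% lower). Day 3 against day 2 blood gave 0 higher and 1 lower of 22, the secreted vessel factor gene Egfl7 (-1.71 ± 0.39, adjusted p = 0.0226), beside 10.2% of all genes called. Endothelial cultures had 8 higher and 3 lower of 24 than embryo endothelium, with Apln at 2970 TPM against 115 TPM and Emcn at 43.6 TPM against 861 TPM, and yolk sac endothelium had 5 higher and 2 lower of 24 than embryo endothelium. Both counts are near the shares of all genes called, 45.4% for the cultures and 24.4% for yolk sac.

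A list of 16 blood genes with described ETS control was read in the same way. In day 2 blood against eHB lines 9 of the 10 tested rose and 0 fell (median 8.29, all genes 0.01), beside 54.1% of all genes called (28.5% higher and 25.5% lower). The platelet chemokine gene Pf4 rose by 11.53 ± 2.40 (edgeR, adjusted p = 0.00293), with megakaryocyte markers at 671 to 21130 TPM over the day 2 libraries. Against endothelial cultures 8 of 14 rose and 0 fell in day 3 blood (median 4.67, all genes 0.02), and 7 of 12 rose and 0 fell in day 2 blood (median 4.51, all genes 0.04). Of all genes, 61.3% were called in the day 3 comparison (31.1% higher) and 64.4% in the day 2 comparison (32.9% higher). The numbers called are near these shares, and all were higher. Spi1, the ETS factor PU.1 of myeloid cells, led in day 2 blood (7.75 ± 0.73, adjusted p = 2.18e-05). Day 3 against day 2 blood gave 2 higher and 0 lower of 14: Ptprc, the gene of the CD45 sorting marker, and Spi1 (2.63 ± 0.34, adjusted p = 0.00192). In that comparison 10.2% of all genes were called. In endothelial cultures against eHB lines 4 were higher and 0 lower of 8, among them Cd34 at 299.9 TPM against 0.138 TPM. The number called is below the 70.0% of all genes called there (34.3% higher and 35.6% lower). Only 5 of its genes were tested in mesoderm against ES cells (1 higher, 3 lower) and 5 in eHB lines against mesoderm (4 higher, 0 lower). The shares of all genes called were 79.1% and 46.6%. In endothelial cultures against embryo endothelium 2 were higher and 3 lower of 13, beside 45.4% of all genes called. In yolk sac against embryo endothelium 6 were higher and 0 lower of 14, beside 24.4% of all genes called.

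Of the 12 partners listed beside ETS factors in early blood and endothelium, such as Tal1, Lyl1, Lmo2, Gata2 and Runx1, 5 rose and 1 fell of 11 in eHB lines against mesoderm, near the 46.6% called among all genes. Lyl1 rose by 7.74 ± 0.94 on the log2 scale (edgeR, adjusted p = 4.69e-04), and Runx1, which drives the hemogenic transition, fell by 2.90 ± 0.85 (adjusted p = 0.0234). The ectopic copies of Tal1, Lmo2 and Gata2 have rows of their own in the tables, and how cleanly reads were split between the copies was not tested. In day 2 blood against eHB lines 7 rose and 0 fell of 11, with Runx1 at 58.0 TPM against 2.29 TPM, beside 54.1% of all genes called (28.5% higher and 25.5% lower). Against endothelial cultures 6 rose and 1 fell of 11 in each kind of blood, near the background of 61.3% for day 3 and 64.4% for day 2, with Runx1 at 74.8 TPM in day 3 blood, 58.0 TPM in day 2 blood and 10.2 TPM in endothelial cultures. Foxc1 and Foxc2, forkhead factors of embryonic mesenchyme and vessels, were lower in endothelial cultures than in embryo endothelium (Foxc1 2.58 TPM against 35.3 TPM, adjusted p = 0.00236; Foxc2 0.973 TPM against 19.4 TPM, adjusted p = 0.00367).

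The other ETS family genes gave the 8 a frame; 18 of 19 had a row. In day 3 blood against endothelial cultures 2 rose and 7 fell of 12, beside 61.3% of all genes called (31.1% higher and 30.2% lower). Spi1 stood at 318 TPM against 0.330 TPM and Elf4, a close relative of Elf1, at 45.3 TPM against 13.2 TPM (2.14 ± 0.45, edgeR, adjusted p = 0.00194), while Etv4, a target of FGF and ERK signalling, stood at 3.72 TPM against 29.4 TPM. Elf4 was low in every eHB line, at 0.021 to 0.088 TPM, and rose in day 2 blood (8.94 ± 0.48, adjusted p = 5.47e-06) to 16.2 TPM, where 2 rose and 4 fell of 12. That count is near the 54.1% of all genes called in day 2 blood against eHB lines. In mesoderm against ES cells 4 rose and 10 fell of 16, beside 79.1% of all genes called (39.1% higher and 40.0% lower). The epithelial factor Elf3 averaged 5.64 TPM across mesoderm libraries against 108 TPM across ES libraries, and Spic, a relative of Spi1, 3.33 TPM against 74.7 TPM. Etv4 went the other way, at 60.6 TPM against 7.55 TPM. Gabpa, which serves respiratory chain genes, was named after its values were seen because it was found in every library, from 4.67 TPM in day 2 blood to 74.0 TPM in ES cells. In endothelial cultures against eHB lines 4 rose and 2 fell of 11, with a median log2 fold change of 0.22, beside 2.44 for the 7 tested of the 8 factors and -0.04 for all genes. The number called is below the 70.0% of all genes called there.

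**Figure D5:**
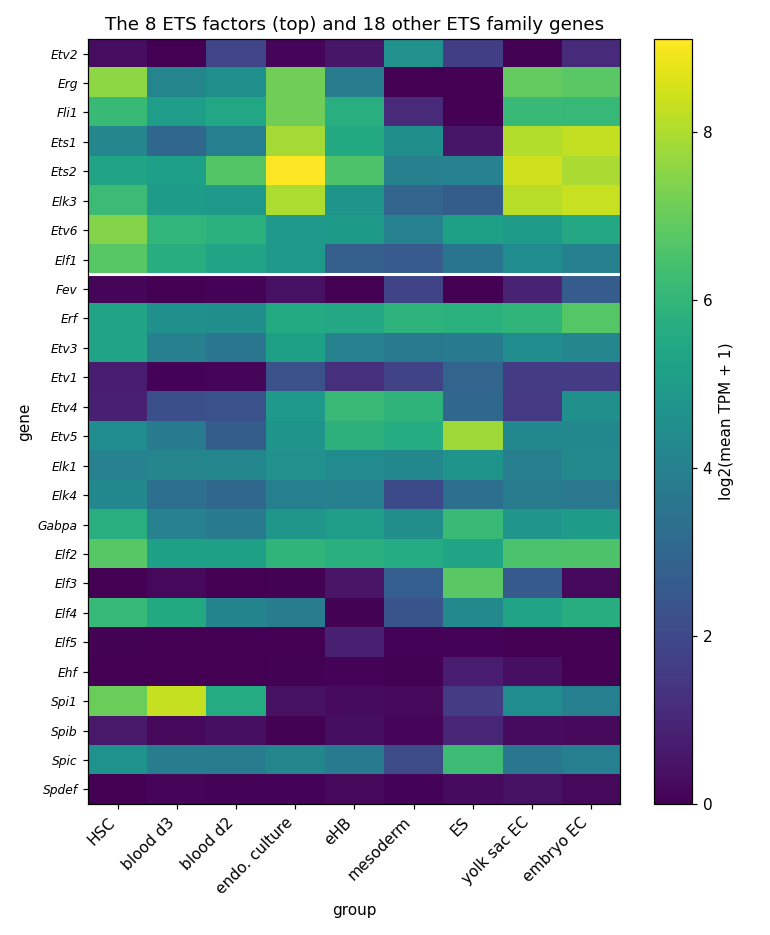
Mean level, as log2(mean TPM + 1), of the 8 ETS factors (above the white line) and 18 other ETS family genes in each group. Spi1 is seen in HSCs (134 TPM), day 3 blood (318 TPM) and day 2 blood (47.7 TPM), and at 14.45 TPM also in embryo endothelium. Ets1, Ets2 and Elk3 mark the 3 endothelial groups.

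Across the 9 group means of log2(TPM + 1), the 8 genes fell into related patterns. Pearson's r was 0.928 between Erg and Elk3, 0.903 between Erg and Fli1, 0.896 between Ets2 and Elk3, 0.879 between Ets1 and Ets2 and 0.852 between Etv6 and Elf1. Etv2 had a negative r with each of the other 7, from -0.753 for Fli1 to -0.255 for Ets1. Ets1 and Etv6 had an r of -0.199. These values describe 9 points that share libraries of common lines, so no p is given.

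Among 9873 genes that reached a group mean of 20 TPM, those closest to each factor over the 9 groups were found by the same measure. Elk3 was followed most closely by Arhgap31 (r = 0.984), Prkch (0.982) and Arhgap27 (0.980), and Ets1 by Babam1 (0.991), Itga5 (0.987) and Rgl1 (0.980). Those for Ets2 were Tspan18 (0.982), Ndel1 (0.978) and Ptrf (0.975), for Erg Trafd1 (0.983), Jak1 (0.976) and Sdcbp (0.974), and for Fli1 Stx17 (0.978), Pon2 (0.975) and Ica1 (0.974). Elf1 was nearest to Rad51d (0.976), Sash3 (0.976) and Neurl3 (0.969), and Etv6 to Izumo4 (0.948), Madd (0.947) and Haghl (0.947). The genes nearest to Etv2 were Tmem28 (0.963), Cfc1 (0.959), a Nodal co-receptor gene, and Wnt5b (0.958).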

How the data were processed

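RNA from 31 mouse samples was measured by RNA-seq on libraries of the TruSeq RNA kit, per the labels' protocols; no strand setting is given in the sources used here, so reads of overlapping genes cannot be separated. The submitters' processing notes name CASAVA 1.8.2, Bowtie 0.12.9, RSEM 1.2.3 and the mm10 build. The authors deposited 1 table of expected counts per gene and 1 table of TPM, per the file headers; whether TPM were rescaled after RSEM is not given in the sources used here. TPM columns were matched to samples by name; the TPM header holds 33 names for rows of 32 cells, and the pattern of detected genes was nearest to the own count column in 31 of 31 libraries. Libraries held 9424412 to 79497758 expected counts, which limits the precision for Etv2 and Erg where few reads were found; counting intervals (95%, exact) and the floor of 3 counts cover counting error only.

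The members and gene lists were chosen with earlier results of these data known. Expected counts were rounded to whole numbers and tested with edgeR 4.0.16 (R 4.3.3; TMM, filterByExpr, robust quasi-likelihood F test, Benjamini-Hochberg adjustment over all genes, threshold 0.05) in fits of the compared groups only. Genes with too few reads for filterByExpr were not tested. SE is the log2 fold change divided by the square root of F. The scripts were tested on simulated data. Alternatives were DESeq2 1.42.0 size factors and its Wald test, no filter, limma 3.58.1 on log2(TPM + 1), all 31 libraries in 1 fit, each replicate left out, and a replicate block; leaving out the M5 and FL4 libraries of day 2 blood was added after seeing the data. Tables and figures were made with Python 3.11.15, pandas 2.3.3, numpy 2.4.6 and matplotlib 3.10.9.

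Groups come from sample titles. Replicates are lines or sorted samples, and where nothing names separate cultures or animals, p-values measure only the spread between these samples. Comparisons share libraries. The same cell line gives the pairing. Own-line correlations of deviations from group means were 0.125 to 0.663 between eHB-derived groups and -0.061 to 0.052 between mesoderm and ES cells. For RB3.6.5 another line correlated more closely in day 3 against day 2 blood (0.363, own line 0.321). The same held for RB3.6.5 in day 3 blood against endothelial cultures (0.127, own line 0.125). It also held for RB3 in mesoderm against ES cells (0.067, own line -0.061). Yolk sac and embryo replicates share only a number (-0.081). No 2 of the 48 pairs of libraries within a group agreed within counting noise (mean chi-square per gene 4.16 to 568). Per list and comparison, up to 3 called genes with the largest change and at least 5 TPM in the higher group, and 1 in the other direction, could be named. In 1 case, a gene that would otherwise have been named is not reported here. Likeness used Pearson's r of group means of log2(TPM + 1). Promoters are those of the RefSeq table of build GRCm38.p6, and gene positions those of GENCODE vM21.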

Additional observations from a re-analysis of the deposited data

Results flagged for a closer look

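A single library stood apart from the other 4 of its group in 4 of 32 gene-by-group sets tested with Dixon's criterion, which flags about 1 in 20 groups by chance. Etv2 in the M5 library of day 2 blood was 12.5 TPM, where the other 4 libraries had 0 to 0.429 TPM. Etv2 in the RB4.6.9 library of day 3 blood was 0.092 TPM, which is 1 read, where the other 4 had 0. With 4 values at 0, any value above 0 is flagged, so the rate of 1 in 20 does not apply to this set. Elf1 in the FL4 eHB line was 10.7 TPM, where the other 4 lines had 3.80 to 5.31 TPM. Elf1 in the RB4.6.9 library of day 3 blood was 62.5 TPM, where the other 4 had 43.4 to 48.7 TPM.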

How the results depend on the processing

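Of 89 values tested for the 8 genes, 43 were called. Recomputed under alternatives other than leaving out a replicate, called values stayed called in the same direction in 240 cases, lost the call in 16 and turned in 1. With a replicate left out, 333 stayed called and 35 lost the call. Among values not called, 6 became called under the other alternatives and 3 with a replicate left out. On log2(TPM + 1) with limma, 4 genes were called in mesoderm against ES cells and 0 in day 3 against day 2 blood, and signs turned for Ets2 in mesoderm against ES cells (-0.057), Elf1 in eHB lines against mesoderm (0.103), Fli1 (-0.230) and Ets2 (-0.153) in day 2 blood against eHB lines, Fli1 by origin in endothelial culture (-0.016) and the Elf1 interaction (0.112). With all 31 libraries in 1 fit, 4 genes were called in mesoderm against ES cells, 2 in day 3 against day 2 blood (3674 of all genes) and 0 in yolk sac against embryo (590 of all genes), 95 genes differed by origin in culture, and Etv2 (0.006, eHB lines) and Fli1 (-0.011, culture) changed sign by origin. DESeq2 called 2409 genes in day 3 against day 2 blood, 3973 by origin in eHB lines, 1589 by origin in culture (1 of the 8) and 1042 for the interaction; limma called 16 by origin in culture and 166 for the interaction. With DESeq2 size factors, or its Wald test, Etv6 in culture against eHB lines was 0.017 and Fli1 by origin in culture -0.002. Without the filter, 2 of the 8 were called in yolk sac against embryo, Fli1 by origin in culture was -0.012, and the median of all genes moved to -0.106 in mesoderm against ES cells, against -0.004 with it. Without the M5 and FL4 libraries of day 2, 718 genes were called in day 3 against day 2 blood and Elk3 was -0.222. In the replicate block fit 1 gene was called for the interaction, and pairing ended the calls of Ets2 in mesoderm against ES cells (0.269, adjusted p = 0.0543) and Ets1 in day 2 blood against eHB lines (-1.116, adjusted p = 0.0918) and no other. The cause of these changes was not tested.

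With each replicate left out in turn, the genes called among the 8 ranged from 4 to 7 in mesoderm against ES cells, 0 to 1 in day 3 against day 2 blood, 2 to 5 in endothelial cultures against embryo endothelium, 0 to 1 in yolk sac against embryo endothelium and 0 to 1 for the interaction. Among all genes, the counts ranged from 657 to 1930 in day 3 against day 2 blood, 3415 to 6512 in cultures against embryo endothelium, 0 to 29 by origin in eHB lines, 0 in every case by origin in culture and 0 to 40 for the interaction. The log2 values that changed sign were not called. They ranged from -0.518 to 0.091 for Elf1 in eHB lines against mesoderm and from -0.111 to 0.021 for Etv6 in cultures against eHB lines. In day 3 against day 2 blood they ranged from -0.816 to 0.250 for Erg, -0.086 to 0.341 for Elk3 and -0.067 to 0.200 for Etv6. Erg ranged from -0.054 to 0.619 in cultures and from -0.110 to 0.310 in yolk sac against embryo endothelium, and Fli1 from -0.020 to 0.017 in yolk sac. By origin in eHB lines the ranges were -0.692 to 1.2 for Etv2, -0.240 to 1.583 for Ets1, -0.488 to 0.062 for Ets2 and -0.877 to 0.619 for Elk3. By origin in culture they were -1.42 to 0.223 for Erg, -0.114 to 0.132 for Fli1, -0.048 to 0.190 for Ets1 and -0.144 to 0.016 for Elk3. For the interaction they were -0.470 to 5.14 for Erg, -1.576 to 0.241 for Ets1, -0.743 to 0.748 for Elk3 and -0.464 to 0.329 for Elf1. Etv2 and, in mesoderm and ES cells, Erg rest on few reads.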
